A study of Mus musculus with 3 samples.

Results

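Mononuclear phagocytes, the family of monocytes, macrophages and dendritic cells, were picked out of 1 single-cell RNA sequencing library of arterial cells from mice given sunitinib plus Yoda1. A cell counted as a phagocyte when at least 3 of 9 marker genes (Csf1r, Cd68, Lyz2, C1qa, C1qb, Adgre1, Mrc1, Ccr2 and Fcgr1) were detected and none of the lymphoid and endothelial genes Cd79a, Ms4a1, Cd3e, Cd3d and Pecam1 was. Of 3130 cells of that library that passed the quality filters, 132 met the rule, out of 11225 such cells in the 3 libraries of the study. Within them, 69 cells with a molecule of C1qa were set against 63 cells without one. The cells were chosen by the counts of the 9 marker and 5 exclusion genes and divided by the count of C1qa, so the values of these genes are given as a description. Because C1qa and C1qb count as markers, a C1qa-positive cell needed fewer of the other markers to enter than a cell without C1q. This bears on the C1qa-positive share and on which C1qa-positive cells were included. The comparison rests on the same cells throughout, so all values below describe these cells and support nothing further.

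The study took vascular tissue from wild-type (WT) mice after sunitinib plus Yoda1, after sunitinib alone and after vehicle, with 1 library per treatment, all labelled 3 weeks. Sunitinib inhibits receptor tyrosine kinases, among them the receptors encoded by Csf1r and Flt3, which phagocytes use for survival and growth. Yoda1 is an agonist of the stretch-gated cation channel PIEZO1. The label of the Yoda1 library names Yoda1 without sunitinib, and the library was placed with both compounds because the study's design lists no Yoda1 group without sunitinib. Doses, age, sex and the number of mice pooled are not given in the sources used here. Each captured transcript carried a unique molecular identifier (UMI), and a level is the UMIs of a gene scaled to a total of 1000000 UMIs in a group of cells (CPM). With 1 library there is no replicate: no test was made, and every interval is a 95% interval for counting error only.

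Macrophages that live in a tissue take up dying cells, lipid and iron, and many make C1q, the first component of the classical complement cascade, from the linked genes C1qa, C1qb and C1qc. Monocytes arrive from blood carrying the chemokine receptor CCR2 and can turn into macrophages, while dendritic cells present antigen on MHC class II molecules to T cells. In arteries all of these sit mainly in the outer coat.

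The genes that separated C1qa-positive from C1qa-negative cells were those of tissue macrophages on the higher side and, on the lower side, genes of antigen-presenting dendritic cells and of monocytes. C1qb and C1qc, the other chains of C1q, followed C1qa closely. All 22 measured genes of a resident macrophage list, among them the gate marker Mrc1, lay above 0 on the log2 scale. The C1qa-negative cells were not of one kind: 18 of them, each with 2 or more of Flt3, Cd209a, Klrd1 and Dpp4, held 2027 of the group's 2216 UMIs of the MHC class II gene H2-Aa. The other 45 lay below the C1qa-positive cells with Ccr2 in MHC class II.

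The 3 C1q genes lie next to each other on chromosome 4 and the MHC class II genes H2-Aa and H2-Eb1 on chromosome 17, and the members of each set were high in the same groups of cells. Promoter windows of 250 bases before to 50 bases after the gene start are shown because these are the genes on which the comparison turns. They come from RefSeq (GRCm38.p6), which supplied 4 of the 6 genes asked for, and no sequence is shown for C1qa and H2-Ab1. Capitals mark GAGGAA, a core sequence of the kind bound by the myeloid factor PU.1, in the C1q windows.
C1qb (chr4:136886151-136886450, minus strand): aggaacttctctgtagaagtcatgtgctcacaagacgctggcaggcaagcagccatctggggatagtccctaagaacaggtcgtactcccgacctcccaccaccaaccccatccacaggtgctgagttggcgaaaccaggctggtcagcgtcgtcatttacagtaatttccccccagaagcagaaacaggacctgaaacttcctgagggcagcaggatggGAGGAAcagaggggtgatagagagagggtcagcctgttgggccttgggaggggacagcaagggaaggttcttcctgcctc
C1qc (chr4:136892865-136893164, minus strand): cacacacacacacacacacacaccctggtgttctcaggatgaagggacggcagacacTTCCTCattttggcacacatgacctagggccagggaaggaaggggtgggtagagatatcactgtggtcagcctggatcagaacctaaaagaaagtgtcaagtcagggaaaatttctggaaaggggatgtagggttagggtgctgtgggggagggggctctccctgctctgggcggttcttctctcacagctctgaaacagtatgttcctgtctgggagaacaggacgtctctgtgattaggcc
In the MHC class II windows, capitals mark CTGATTGG, the inverted CCAAT sequence known as the Y box of class II promoters.
H2-Aa (chr17:34287774-34288073, minus strand): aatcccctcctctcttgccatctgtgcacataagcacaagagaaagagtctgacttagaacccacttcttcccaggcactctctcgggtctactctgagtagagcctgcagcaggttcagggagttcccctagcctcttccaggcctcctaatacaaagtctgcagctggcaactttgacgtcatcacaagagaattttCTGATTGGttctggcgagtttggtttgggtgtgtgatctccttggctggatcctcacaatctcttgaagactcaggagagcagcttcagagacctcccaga
H2-Eb1 (chr17:34305617-34305916, plus strand): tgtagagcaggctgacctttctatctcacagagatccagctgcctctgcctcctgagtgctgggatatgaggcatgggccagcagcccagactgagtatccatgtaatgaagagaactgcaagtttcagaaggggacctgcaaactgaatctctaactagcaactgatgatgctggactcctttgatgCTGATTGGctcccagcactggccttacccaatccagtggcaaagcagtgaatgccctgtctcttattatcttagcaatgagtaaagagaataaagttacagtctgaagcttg
GAGGAA was found on the same strand 30 bases before the start of C1qb (counted as -30 from the start base) and on the opposite strand of C1qc with its first base at -193. CTGATTGG began at -51 in H2-Aa and at -62 in H2-Eb1, on the same strand in both. Searched on both strands, GAGGAA occurred in 28.3% and CTGATTGG in 4.10% of 32851 windows of the same length. A match says only that these letters are present.

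Most phagocytes were deep enough for single cells to be read, but depth was uneven. Of the C1qa-positive cells 50 of 69, and of the C1qa-negative cells 61 of 63, had 2000 or more UMIs. Lower quartiles were 1854 UMIs in C1qa-positive and 9435.5 UMIs in C1qa-negative cells. The C1qa-positive cells had a median of 8491 UMIs and 2583 genes, with 5.02% mitochondrial UMIs, and the C1qa-negative cells a median of 12386 UMIs and 3368 genes, with 3.31% mitochondrial UMIs. Summed, they held 634635 and 814920 UMIs. The library as a whole was shallower, at a median of 5451.5 UMIs per kept cell, against 15902.5 in the sunitinib library and 16561 in the vehicle library. Phagocytes made up 4.22% of kept cells with sunitinib plus Yoda1 (exact binomial interval 3.54 to 4.98%), against 0.0482% with sunitinib (2 of 4148 cells) and 0.152% with vehicle (6 of 3947 cells). The cell types captured, the tissue dissected and the treatment cannot be told apart with 1 library each. Of the cell barcodes, 8 were shared between the sunitinib plus Yoda1 and sunitinib libraries and 3 between the sunitinib plus Yoda1 and vehicle libraries.

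The label of mononuclear phagocytes was set against genes that the gate did not use. The other cell classes of the library leave out any cell that passed the phagocyte gate. Tyrobp, which encodes a signalling adapter of myeloid and natural killer cells, had a UMI in 94.2% of C1qa-positive and 98.4% of C1qa-negative cells, against 10.5% of B cells, 3.28% of fibroblasts, 2.08% of T cells and 1.37% of endothelial cells. Fcer1g, the signalling chain of Fc receptors, had one in 88.4% of C1qa-positive and 93.7% of C1qa-negative cells, against 4.66% of endothelial cells, 3.57% of B cells, 3.46% of T cells and 3.28% of fibroblasts. The values of the gate genes themselves only describe the choice. All 9 markers were detected in 22 cells, and 19 cells passed with exactly 3. Those 19 cells had 2514 CPM of Lyz2 and 397 CPM of C1qa, while 45 cells that fell just outside, with 2 markers, had 1065 CPM of Lyz2 and 72.5 CPM of C1qa. A further 43 cells with 3 or more markers were left out for an exclusion gene, among them 26 with Pecam1 and 12 with Cd79a. Lyz2, which encodes lysozyme, had a UMI in 88.4% of C1qa-positive and 96.8% of C1qa-negative cells, against 7.67% of endothelial cells, 4.85% of B cells, 3.81% of T cells and 13 of 183 fibroblasts. C1qa itself had a UMI in 1.28% of B cells (median 4517 UMIs), 1.73% of T cells (7321 UMIs), 1.10% of endothelial cells (4336 UMIs) and 0.546% of fibroblasts (10106 UMIs).

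**Figure D1:**
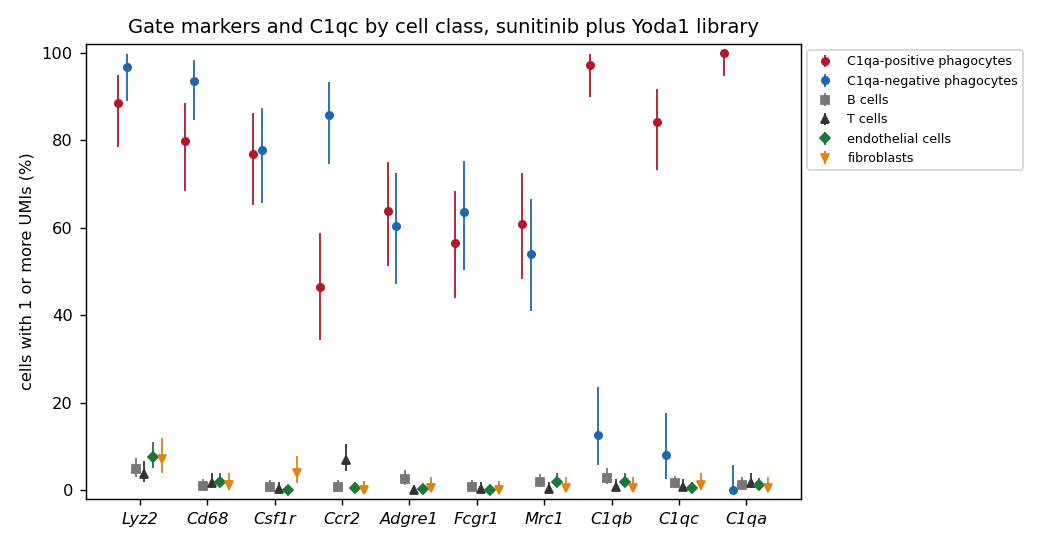
Share of cells with at least 1 UMI (vertical axis, %) for the 9 gate markers and C1qc in 6 cell classes of the sunitinib plus Yoda1 library; points are shares and lines exact 95% binomial intervals. Lyz2 had a UMI in 88.4% of C1qa-positive and 96.8% of C1qa-negative phagocytes and in at most 7.67% of the other 4 classes; the gate used every marker except C1qc.

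The 3 C1q chains were detected together in most C1qa-positive cells. C1qa had between 1 and 106 UMIs per positive cell, with a median of 8. It had 3 or more UMIs in 53 cells, and of the 16 cells with 1 or 2 UMIs, 14 also held C1qb or C1qc. C1qb and C1qc were both present in 58 of 69 C1qa-positive cells, against 4 of 63 C1qa-negative cells, and both were absent from 2 C1qa-positive and 54 C1qa-negative cells.

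Single cells of the groups stood apart in C1qb and C1qc, the genes for its partner chains. C1qb ranged in C1qa-positive cells from 0 to 11315 CPM with a median of 1556, and in C1qa-negative cells from 0 to 1961 CPM with a median of 0. C1qc ranged in C1qa-positive cells from 0 to 4243 CPM with a median of 1123, and in C1qa-negative cells from 0 to 444 CPM with a median of 0. Each C1qa-negative maximum was 1 UMI in a shallow cell, with 510 UMIs in all for C1qb and 2254 for C1qc. The ranges overlapped through 8 C1qa-negative cells that held C1qb and 5 that held C1qc. They also overlapped at 0, with 2 C1qa-positive cells lacking C1qb and 11 lacking C1qc. Over summed UMIs, C1qb was 1987 CPM in C1qa-positive and 45.4 CPM in C1qa-negative cells (log2 ratio 5.45, 4.98 to 5.96). C1qc was 1049 and 12.3 CPM in C1qa-positive and C1qa-negative cells (log2 ratio 6.42, 5.53 to 7.49). Thinning drew each cell down to 2000 UMIs and left out cells with fewer, so 50 of 69 C1qa-positive and 61 of 63 C1qa-negative cells remained. After it, C1qb was still seen in 45 of 50 C1qa-positive and 4 of 61 C1qa-negative cells. C1qa (ENSMUSG00000036887) spans chr4:136895917-136898803 on the minus strand of mm10, with C1qc and C1qb downstream of it on the same strand.

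The other gate markers differed less. Csf1r, the receptor for the growth factor CSF1 and a sunitinib target, was 514 CPM in C1qa-positive and 250.3 CPM in C1qa-negative cells (log2 ratio 1.04, 0.78 to 1.30). Mrc1, the mannose receptor CD206, was 1554 CPM in C1qa-positive and 415 CPM in C1qa-negative cells (1.91, 1.73 to 2.09). Adgre1, which encodes the macrophage antigen F4/80, was 318 and 182 CPM in C1qa-positive and C1qa-negative cells. The general phagocyte genes stood close together: Lyz2 was 6927 CPM in C1qa-positive and 6628 CPM in C1qa-negative cells, and the lysosomal protein gene Cd68 was 471 CPM in C1qa-positive and 506 CPM in C1qa-negative cells. The Fc receptor gene Fcgr1 was 310.4 and 242 CPM in C1qa-positive and C1qa-negative cells. Ccr2 was 873 CPM in C1qa-positive and 1000.1 CPM in C1qa-negative cells but was spread differently, over 32 of 69 and 54 of 63 cells (27 of 50 and 42 of 61 after thinning).

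**Figure D2:**
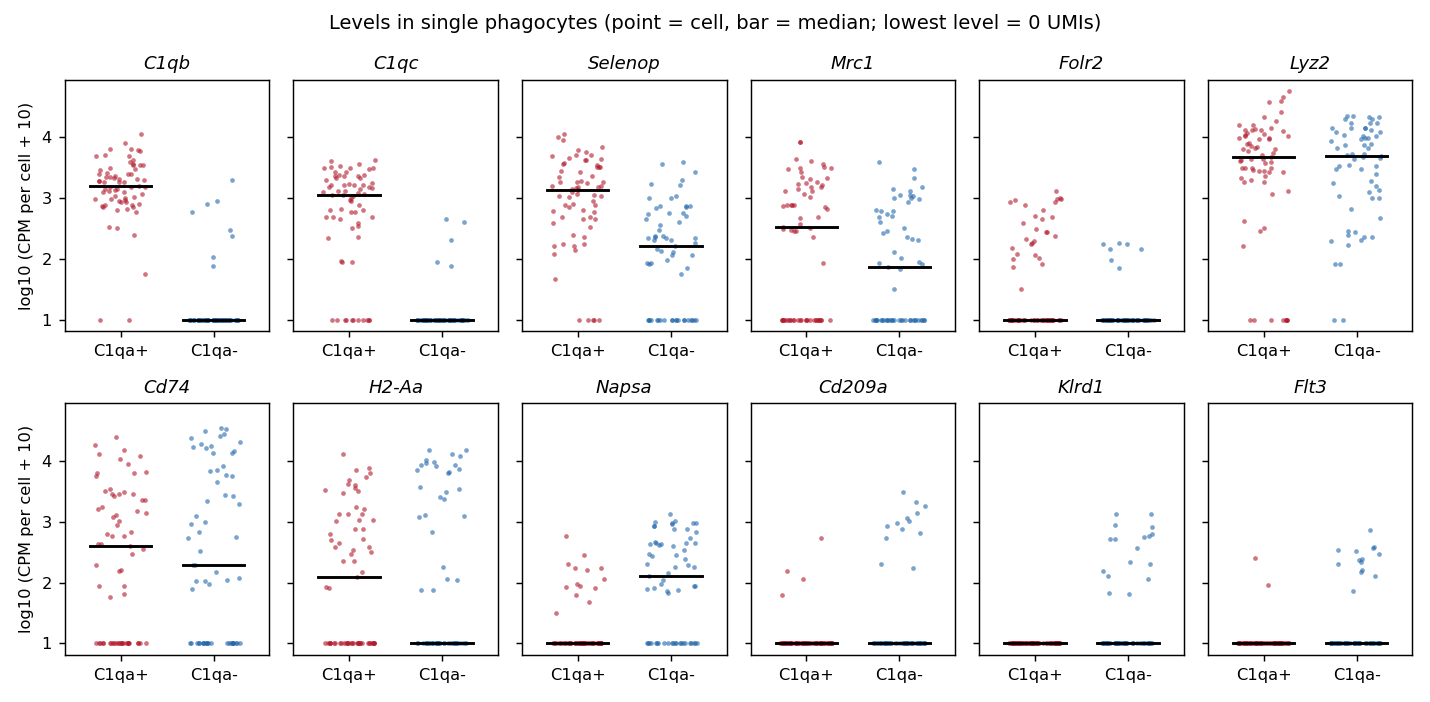
Level of 12 genes in each phagocyte, as log10 of CPM per cell plus 10 (vertical axis), for 69 C1qa-positive cells (red, left) and 63 C1qa-negative cells (blue, right); bars are medians and the lowest level is 0 UMIs. C1qb and C1qc medians were 1556 and 1123 CPM in C1qa-positive cells and 0 in C1qa-negative cells, while Klrd1 was absent from all C1qa-positive cells and present in 17 C1qa-negative cells.

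Among 7264 genes with at least 20 UMIs over both groups, C1qa left out, 401 (5.52%) were at least 2-fold higher and 510 (7.02%) at least 2-fold lower in C1qa-positive cells, around a median log2 ratio of -0.02. These counts describe the 2 sums of UMIs and are not tests.

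Among genes detected in 20% or more of one group's cells, the highest were C1qc, Ltc4s and C1qb. Retnla, Marco, Timd4 and Lyve1, described below, lay above Slc40a1 but were found in fewer cells than that limit. Ltc4s, the synthase of leukotriene C4, was 94.5 CPM in C1qa-positive and 1.23 CPM in C1qa-negative cells (log2 ratio 6.27, 3.73 to 11.59). Slc40a1, the iron exporter ferroportin, was 112 and 4.91 CPM in C1qa-positive and C1qa-negative cells (4.51), and was seen in 18 and 2 cells. Folr2, a folate receptor used as a marker of resident macrophages, was 176 CPM in C1qa-positive and 19.6 CPM in C1qa-negative cells (3.17), in 29 and 7 cells. The secreted phospholipase gene Pla2g2d (3.41), the lectin gene Cd209b (3.31), the carbonyl reductase gene Cbr2 (3.12) and Gas6 (2.95), a bridge between dying cells and the receptors MERTK and AXL, followed on the log2 scale. Igf1, a growth factor gene, was 2.21, and Tanc2 and Psd3 were 3.70 and 2.55. For Pla2g2d, Cd209b and Gas6 the few UMIs of the C1qa-negative cells came mostly from 1 cell for each gene, which held 87.5%, 91.7% and 70.6% of them.

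The lowest genes were Dpp4, Klrd1, Timp1 and Cd209a. Dpp4, which encodes the peptidase CD26, was 1.58 CPM in C1qa-positive and 73.6 CPM in C1qa-negative cells (log2 ratio -5.55, -10.87 to -3.01). Klrd1, which encodes the receptor chain CD94, had 0 UMIs in C1qa-positive and 137 UMIs in C1qa-negative cells, so its log2 ratio was at most -5.15 with 3 UMIs as the floor over the group. Cd209a, which encodes the dendritic cell lectin DC-SIGN, was 9.45 CPM in C1qa-positive and 228 CPM in C1qa-negative cells (-4.59). Flt3, the growth factor receptor of dendritic cells and a sunitinib target, was 6.30 and 58.9 CPM in C1qa-positive and C1qa-negative cells (-3.22). The integrin genes Itgal (-3.05) and Itgb7 (-2.86), the aspartic protease gene Napsa (-2.82), the signalling adapter gene Traf1 (-3.75, with 3 UMIs in C1qa-positive cells, -6.08 to -2.13), the kinase gene Lrrk2 (-3.16), the pro-apoptotic gene Pmaip1 (-3.30) and the transcriptional repressor gene Bhlhe40 (-2.78) completed the group. Timp1, an inhibitor of matrix proteases, stood at -4.72, but 83.5% of its UMIs in C1qa-negative cells came from 1 cell, and without the top cell of each group it was -2.57.

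Every one of these genes kept its sign under the alternatives that gave it a value, but some sizes depended on the choice of cells. Of the 18 alternatives, Klrd1 had a value in 13, and Dpp4, Traf1 and Flt3 in 15. Most of the named genes, these 4 included, had too few UMIs for a ratio after thinning, so their sign was not checked at equal depth. When cells with an exclusion gene were kept, Itgal was -0.25 on the log2 scale, no longer 2-fold lower, Ltc4s was 3.0 and Pmaip1 -1.74. Without the 18 C1qa-negative cells named above, Napsa was -1.42, Itgb7 -1.94 and Pmaip1 -1.57. Flt3 was -1.65 when cells were split by any C1q gene, Pla2g2d was 1.39 after thinning to 2000 UMIs per cell, and Cd209b was 2.06 with at most 5% mitochondrial UMIs.

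**Figure D3:**
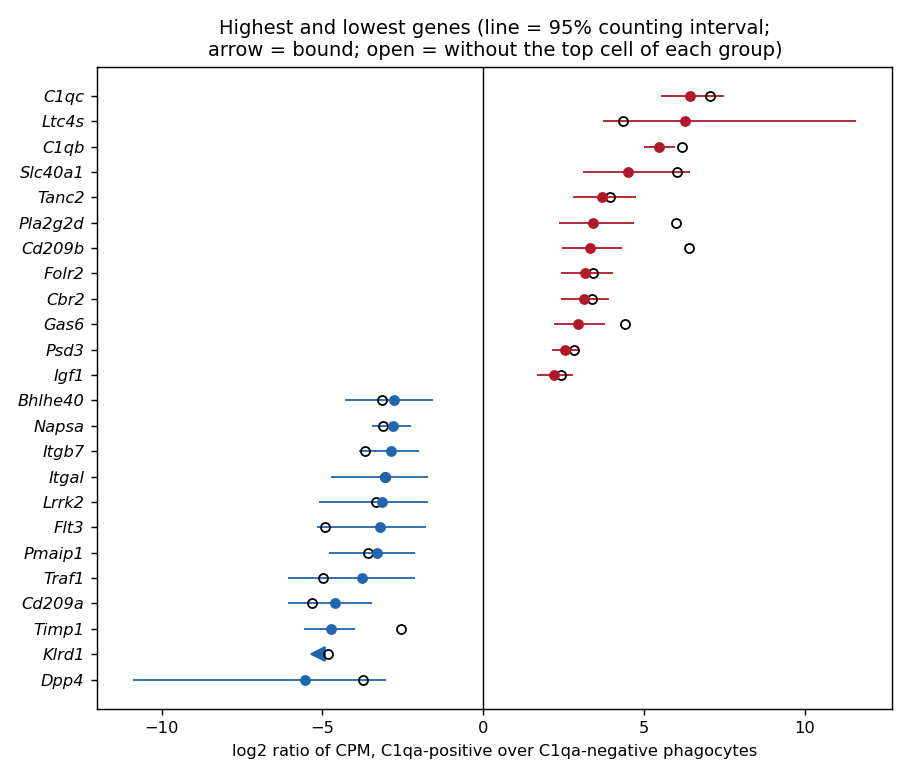
Log2 ratio of CPM, C1qa-positive over C1qa-negative phagocytes (horizontal axis), of the 12 highest and 12 lowest genes that were detected in 20% or more of one group's cells; lines are 95% counting intervals, the arrow is a bound and open circles leave out the top cell of each group. Values run from 6.42 for C1qc to -5.55 for Dpp4, and Timp1 moves from -4.72 to -2.57 without its top cells.

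Of 22 resident macrophage genes, 19 were at least 2-fold higher and none 2-fold lower in C1qa-positive cells, with a median log2 ratio of 1.92, against 5.52% of all genes higher. Without Mrc1, which the gate used, it was 18 of 21 genes, with a median of 1.93. Lyve1, the hyaluronan receptor of macrophages that line vessels, was 147 CPM in C1qa-positive cells, in 9 of them, and 0 UMIs in C1qa-negative cells, where 3 UMIs set the log2 ratio to at least 5.31. Fcna and Cd209f, which encode a ficolin and a lectin, were likewise absent from C1qa-negative cells and were 134 and 118 CPM in C1qa-positive cells. Of the Lyve1 UMIs, 52.7% were in 1 cell. The phosphatidylserine receptor gene Timd4 (4.57, with 2 UMIs in C1qa-negative cells, 2.62 to 7.67) and the haemoglobin scavenger receptor gene Cd163 (3.26) were further up the list than the selenium carrier gene Selenop. Selenop was 1552 CPM in C1qa-positive and 409 CPM in C1qa-negative cells (1.93, 1.74 to 2.11). Among the lowest members were Pf4 (0.57) and Ninj1 (0.49). Ccl8, a chemokine gene, was 1.46, but 98.1% of its UMIs in C1qa-negative cells came from 1 cell.

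Iron, scavenger and growth factor genes are given beside the 5.52% of all genes that were higher. Of 12 iron genes, 5 were at least 2-fold higher and none lower (median 0.95, and 0.43 without the 18 cells): beside Slc40a1 and Cd163 these were Ncoa4 (1.72), which delivers ferritin for breakdown, the haem transporter gene Slc48a1 (1.20) and the metal transporter gene Slc11a1 (1.08). The haem oxygenase gene Hmox1 was 1450 CPM in C1qa-positive and 744 CPM in C1qa-negative cells (0.96). Of 22 scavenger and Fc receptor genes, 8 were higher and none lower (median 0.31, with an interval of -0.26 to 0.87, and 0.05 after thinning), led by Marco (5.80, with 3 UMIs in C1qa-negative cells, 4.22 to 8.09), Timd4 and Cd163, with Tyrobp (-0.45), Scarb2 (-0.27) and Fcer1g (-0.21) at the other end. Of 15 growth factor and matrix genes, 8 were higher and none lower (median 1.16, against 0.53 without the top cell of each gene and 0.37 after thinning), among them Gas6, Igf1, Pdgfb (1.95), Timp2 (1.36) and Vegfa (1.16), while the lowest were Mmp14 (-0.55), Chil3 (-0.28) and Tgfb1 (-0.27). Retnla, a secreted product of alternatively activated macrophages, had 701 UMIs in 4 C1qa-positive cells and 1 UMI in C1qa-negative cells, so its log2 ratio of 9.81 (7.33 to 15.12) rests on 4 cells. The 24 lysosome genes kept within 2-fold (median 0.17), from Ctsd (0.83) to Ctsh (-0.56), both cathepsins.

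Complement genes beyond C1q were split. Of 12 genes, C1qa left out, 4 were at least 2-fold higher (among them C1qc, C1qb and C4b at 2.53) and 2 were lower (Itgax at -2.12 and C3 at -1.21), with a median of 0.44. Lipid-associated macrophage genes were split as well, with 3 of 17 higher (the scavenger receptor gene Cd36 at 1.47, Apoe at 1.38 and the cholesterol exporter gene Abca1 at 1.37) and 3 lower (Gpnmb at -1.93, Fabp4 at -1.25 and Cd9 at -1.22), and a median of 0.11. Apoe, which encodes a lipid carrier, was 5340 CPM in C1qa-positive and 2058 CPM in C1qa-negative cells. The matrix glycoprotein gene Spp1 was 1812 and 1738 CPM in C1qa-positive and C1qa-negative cells.

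Monocyte genes lay on the lower side. All 14 measured classical monocyte genes were below 0, with 4 at least 2-fold lower and none higher (median -0.69), beside 7.02% of all genes lower. Without Ccr2, which the gate used, 4 of 13 genes were lower, with a median of -0.89. The largest differences were the haptoglobin gene Hp (-2.58), Mcemp1 (-1.96) and F10 (-1.58), and among the smallest were Ms4a6c (-0.09) and Ms4a4c (-0.16). Ly6c2, which defines classical monocytes in the mouse, was 169 CPM in C1qa-positive and 193 CPM in C1qa-negative cells (-0.19), in 9 and 20 cells, with 53.3% of its C1qa-positive UMIs in 1 cell. Of 11 nonclassical monocyte genes 5 were lower and none higher (median -0.86), led by Itgal, Adgre4 (-2.57) and Fabp4 (-1.25).

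Inflammatory and immediate early genes lay mostly on the lower side, with 14 of 19 and 14 of 16 below 0, beside 3731 of all 7264 genes. Both medians stayed below 0 under the 18 alternatives. Interferon and heat shock genes had medians near 0 that changed sign under 10 and 4 of the alternatives. Of 19 inflammatory genes, 6 were at least 2-fold lower and 2 higher (median -0.57). Tnf was 3.15 CPM in C1qa-positive and 44.2 CPM in C1qa-negative cells (-3.81, with 2 and 36 UMIs, -6.91 to -1.85), Ptgs2 was -2.25 and Ccl4 was -1.25, while the chemokine genes Cxcl10 (1.77), Ccl12 (1.55) and Ccl9 (0.74) were the highest. Of 18 interferon response genes, 1 was higher (Gbp2 at 2.91) and none lower, with a median of -0.01. Of 16 immediate early genes, which respond within minutes to stimuli that include tissue digestion, 2 were lower (Nr4a1 at -1.22 and Ier2 at -1.03) and the median was -0.35. Of 11 heat shock genes 2 were lower (Hspa1b at -1.70 and Hspa1a at -1.38) and the median was -0.12. The part of digestion in these values was not tested.

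Regulators of phagocyte fate went both ways. Of 28 genes, 4 were at least 2-fold higher (Maf at 1.27, Tgfbr1 at 1.25, Cebpa at 1.05 and Csf1r) and 6 lower (Irf4 at -3.64 with 2 UMIs in C1qa-positive cells, Flt3, Bhlhe40, Id3 at -1.64, Csf3r at -1.09 and Csf2rb at -1.01), with a median of -0.12. Maf encodes a factor of tissue macrophages, and Irf4 one of dendritic cells. Spi1, which encodes PU.1, was 312 CPM in C1qa-positive and 385 CPM in C1qa-negative cells (-0.30). Of 7 measured proliferation genes 5 were lower and none higher (median -1.58), but of the UMIs in C1qa-negative cells 1 cell held 83.3% for Top2a, and 1 cell held all 33 for Birc5.

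**Figure D4:**
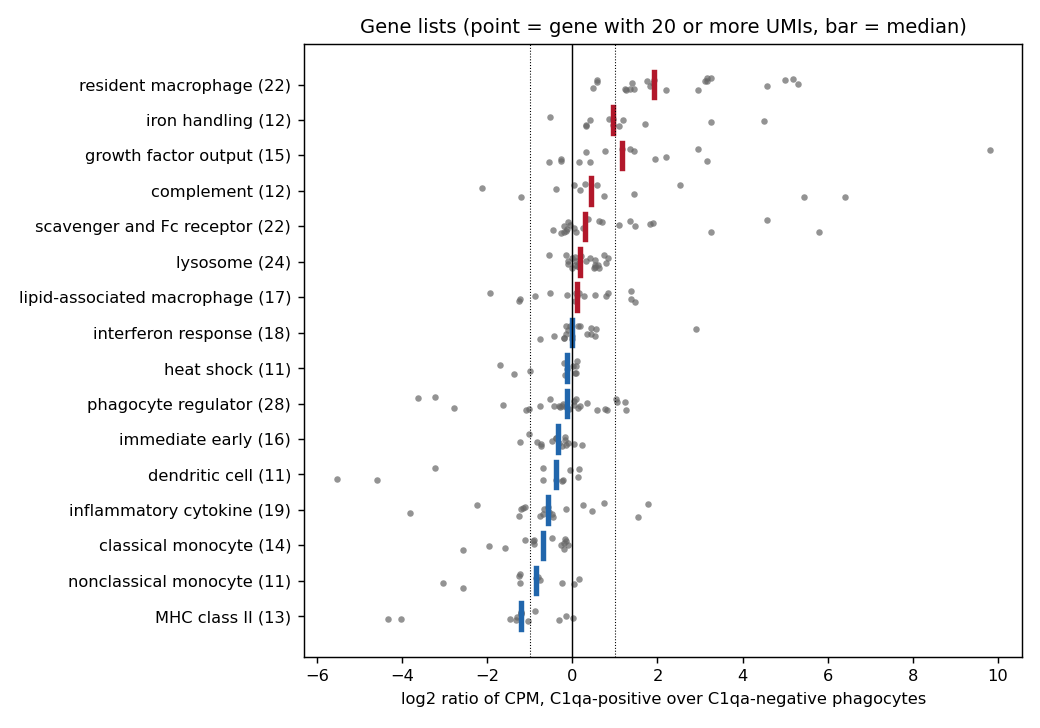
Log2 ratio of CPM, C1qa-positive over C1qa-negative phagocytes (horizontal axis), for the measured genes of 16 lists (points; number measured in brackets) with the list medians as bars, the median of all genes as a solid line and 2-fold as dotted lines. The resident macrophage median was 1.92 and the MHC class II median -1.20, the ends of the lists shown; the point at 9.81 is Retnla.

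MHC class II genes were lower in C1qa-positive cells over summed UMIs, a direction that rested on 18 C1qa-negative cells described below. Of 13 genes of the pathway, 9 were at least 2-fold lower and none higher in C1qa-positive cells (median -1.20). Cd74, the invariant chain, was 2665 CPM in C1qa-positive and 6202 CPM in C1qa-negative cells (log2 ratio -1.22, -1.30 to -1.14), and Ciita, the master regulator of class II, was 37.8 CPM in C1qa-positive and 94.5 CPM in C1qa-negative cells (-1.32). The loading chaperone genes H2-Oa (-4.34, -9.70 to -1.73), H2-Ob (-4.03, -9.40 to -1.40) and H2-DMb1 (-1.30) were lower, with 1 UMI each of H2-Oa and H2-Ob in C1qa-positive cells, and the costimulatory gene Cd86 was level (0.02). H2-Aa ranged in C1qa-positive cells from 0 to 13178 CPM with a median of 115, and in C1qa-negative cells from 0 to 15338 CPM with a median of 0. It was seen in 37 of 69 C1qa-positive and 28 of 63 C1qa-negative cells (19 of 50 and 23 of 61 after thinning). Among cells that held it, the median was 1074 CPM in C1qa-positive and 5018 CPM in C1qa-negative cells. Of 11 measured dendritic cell genes 3 were lower (Dpp4, Cd209a and Flt3) and none higher (median -0.39). Without the 18 cells, which were chosen by these 3 genes and Klrd1, this median was above 0.

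The C1qa-negative UMIs of these genes came from a small set of cells. Klrd1 was detected in 17 C1qa-negative cells, of which 16 held Dpp4, 12 Cd209a, 12 Flt3 and all 17 Napsa. Cd209a was detected in 13 C1qa-negative cells, and all 13 also held H2-Aa, Ccr2 and Napsa. Klrd1 also marks natural killer cells, but Ncr1, Klrb1c, Nkg7 and Gzma, which define them, had 0 UMIs in all 132 phagocytes. In view of this, cells were grouped further after their values had been seen: 18 C1qa-negative cells had 2 or more of Flt3, Cd209a, Klrd1 and Dpp4, and 45 did not. The C1qa-positive cells were divided by Ccr2 into 37 without and 32 with a UMI.

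The 18 cells were deep (median 14031.5 UMIs, the lowest 8280) and held further genes known from dendritic cells beside the 4 genes used to choose them. H2-Aa was 7263 CPM and detected in all 18, Cd74 was 16566 CPM, and Ciita was 251 CPM and detected in 17 of 18. Napsa was 659 CPM, Itgb7 262 CPM and Irf4 115 CPM in them, against 114, 72.8 and 0 CPM in the other 45 C1qa-negative cells. Several macrophage genes were low in the 18 cells, with 0 UMIs of Pf4, Mertk and Folr2. Others were present: Mrc1 was 254 CPM in 11 of the 18 cells and 498 CPM in 23 of the 45. Cd163 was higher in the 18, at 53.75 CPM in 5 cells, against 1.87 CPM in 1 cell of the 45. Csf1r was 68.1 CPM in the 18 and 345 CPM in the 45, and Lyz2 1885 CPM in the 18 and 9098 CPM in the 45. Ccr2 (1079 CPM, all 18 cells) and Plac8 (1261 CPM) were found in them as in the other 45 and in the Ccr2-positive C1qa-positive cells. Zbtb46, which marks the dendritic cell lineage, was seen in 6 of 18.

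Set against the other 45 C1qa-negative cells alone, the MHC class II median of C1qa-positive cells was above 0, but less so in those without Ccr2. In the 37 without Ccr2, 4 of 9 class II genes were at least 2-fold higher and 2 lower (median 0.20), beside 8.25% and 21% of all genes. In the 32 with Ccr2, 6 of 11 were higher and none lower (median 1.28), beside 4.31% and 6.42% of all genes. With the 18 cells left out, the class II median over all C1qa-positive cells was 0.96 in place of -1.20, that of the dendritic cell list 0.33 in place of -0.39, and that of the resident macrophage list 1.52 in place of 1.92. The dendritic cell list holds Dpp4, Cd209a and Flt3, by which the 18 cells were chosen, so its change restates that choice in part. The direction of class II between C1qa-positive and C1qa-negative cells therefore depended on 18 cells. These were taken from the C1qa-negative side only, after Cd209a had been seen to go with H2-Aa. The change of class II was thus in part fixed by that choice as well.

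The Ccr2-positive C1qa-positive cells and the other C1qa-negative cells were of like depth, with medians of 12509.5 and 11363 UMIs. Between them, 265 of 6150 measured genes (4.31%) were at least 2-fold higher and 395 (6.42%) at least 2-fold lower in the C1qa-positive cells. Both groups carried monocyte genes, with Plac8 at 1090.5 CPM in the Ccr2-positive C1qa-positive cells and 1002 CPM in the other C1qa-negative cells, and the classical monocyte median was -0.29, with 2 of 14 genes higher and 3 lower. The 14 include Ccr2, by which the C1qa-positive cells of this comparison were chosen. Hp was 30.8 CPM in the Ccr2-positive C1qa-positive cells and 202 CPM in the other C1qa-negative cells. Of 10 nonclassical monocyte genes 4 were lower and none higher (median -0.82), with Adgre4 at 8.81 and 118 CPM and Itgal at 8.81 and 89.6 CPM in these groups. Both carried Spp1, at 2533 and 2601 CPM, and the arginase gene Arg1, at 1714 and 1396 CPM, in 20 cells of each group. They differed in antigen presentation: 6 of 11 class II genes were higher and none lower (median 1.28), with Cd74 at 2941 CPM in 23 of 32 Ccr2-positive C1qa-positive cells and 804 CPM in 22 of 45 other C1qa-negative cells. The Fc receptor gene Fcgr1 was 412 and 295 CPM in these groups, and resident macrophage genes differed less than in the whole comparison, with 4 of 17 higher and a median of 0.51. The interferon response median was 0.44, with 3 of 18 genes higher.

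The 37 C1qa-positive cells without Ccr2 held genes known from long-lived tissue macrophages and none of several monocyte genes. Plac8, Ly6c2, Chil3, Vcan, Spp1 and Il1b had 0 UMIs in them, while Selenop was 2839 CPM, against 1040 CPM in the Ccr2-positive C1qa-positive cells. Lyve1 (515 CPM, 9 cells), Marco (719 CPM, 13 cells), Cd209b (515 CPM, 15 cells) and Timd4 (205 CPM, 11 cells) were found among C1qa-positive cells in these cells only, at 0 UMIs in the 32 with Ccr2. Some of the 37 cells, with and without Marco, met the rule only because C1qa and C1qb count as markers. Among them were all 11 C1qa-positive cells with exactly 3 markers, none of which held Ccr2. A C1qa-negative cell could enter this way through C1qb alone, so the 37 cells and the 45 compared next entered on unlike terms. In the 37 cells over the other 45 C1qa-negative cells, 19 of 22 resident macrophage genes were at least 2-fold higher (median 2.32), beside 8.25% of all genes. All 13 classical monocyte genes were lower (median -3.35), beside 21% of all genes. Ccr2 is among the 13, and its absence from the 37 cells was fixed by how they were chosen. These cells were shallow, and the part of depth in these absences was not tested beyond the deepest of them: the 37 cells had a median of 1862 UMIs and 7.23% mitochondrial UMIs, against 12509.5 UMIs and 3.30% in the Ccr2-positive C1qa-positive cells. In the 13 of them with 5000 or more UMIs, Plac8, Ly6c2 and Spp1 were still at 0 UMIs, Lyve1 was 636 CPM in 6 cells and Marco 436 CPM in 5.

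Those tissue macrophage genes did not fall on the same cells throughout. Marco and Cd209b, receptors known from macrophages of the splenic marginal zone, were together in 12 C1qa-positive cells, and Marco with Lyve1 in 2. Lyve1 was joined by Folr2 in 6 of its 9 cells, by Cd163 in 6 and by Timd4 in 5, and by H2-Aa in 2. Of 13 measured genes of a list of lymphoid organ macrophages, which was put together after these values had been seen and so restates them, 12 were at least 2-fold higher in C1qa-positive than in C1qa-negative cells (median 3.41), the exception being the lipid-sensing nuclear receptor gene Nr1h3 at 0.82. The count stands beside 5.52% of all genes and nothing is read from it. The library also held 392 B cells and 289 T cells, whose part in these values was not tested.

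**Figure D5:**
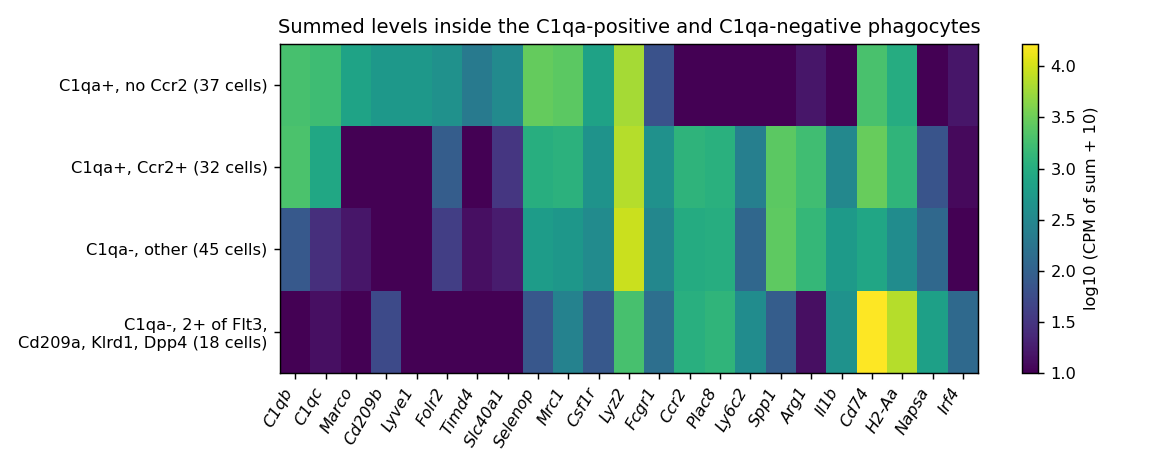
Log10 of CPM plus 10 of the summed UMIs (colour) of 23 genes (columns) in 37 C1qa-positive cells without Ccr2, 32 with Ccr2, 45 C1qa-negative cells and 18 C1qa-negative cells with 2 or more of Flt3, Cd209a, Klrd1 and Dpp4 (rows). Cd74 was 16566 CPM in the 18 cells and 804 CPM in the 45, and Marco, Lyve1 and Timd4 were at 0 UMIs in C1qa-positive cells with Ccr2.

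Piezo1, the channel that Yoda1 opens, was present in both groups at a like level. It was 55.1 CPM in C1qa-positive cells (35 UMIs in 20 cells, interval 38.4 to 76.7) and 60.1 CPM in C1qa-negative cells (49 UMIs in 32 cells, 44.5 to 79.5), a log2 ratio of -0.12 with an interval of -0.79 to 0.53. In the same library it was 137 CPM in endothelial cells, 31.5 CPM in T cells, 30.7 CPM in B cells and 22.9 CPM in fibroblasts. The share of cells with a UMI was 29.0% of C1qa-positive and 50.8% of C1qa-negative cells, and at 2000 UMIs per cell 4 of 50 C1qa-positive and 9 of 61 C1qa-negative cells. Piezo2 had 0 UMIs in all 132 cells. Of the kinases that sunitinib inhibits, Kit, Pdgfra, Pdgfrb, Flt1 and Kdr had at most 13 UMIs each in the 132 cells and Flt4 and Ret had none.

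Transcripts of other cell types were few and often came from 1 cell. Haemoglobin gave 10147 of the 634635 C1qa-positive and 341 of the 814920 C1qa-negative UMIs, and 9931 of the 10147 were in 1 cell. The 11 fibroblast markers summed to 375 CPM in C1qa-positive and 2643 CPM in C1qa-negative cells, where 1 cell held 99.3% of the Col1a2 UMIs. Without the top cell of each group for each gene, the fibroblast median was -0.30, in place of -3.55, and the erythroid and platelet median 0.24, in place of 5.17. Neutrophil markers summed to 217 and 778 CPM in C1qa-positive and C1qa-negative cells, with 2 C1qa-negative cells holding S100a9, and Ly6g, Camp, Ltf and Ngp at 0. The 13 B cell markers summed to 361 CPM in C1qa-positive and 227 CPM in C1qa-negative cells, with Cd79a and Ms4a1 at 0 by the rule and Pax5 and Fcmr at 0, and the 11 endothelial markers to 45.7 and 82.2 CPM, in C1qa-positive and C1qa-negative cells. The 11 mural markers summed to 169 and 142 CPM and the 10 mast cell and basophil markers to 7.88 and 30.7 CPM in these groups, with Cpa3 and Mcpt8 at 0. The 17 T and NK cell markers summed to 106 CPM in C1qa-positive and 256 CPM in C1qa-negative cells, with Cd3g, Lck and Bcl11b at 0, and of this Klrd1 alone gave 168 CPM in C1qa-negative cells.

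Most of the few phagocytes of the other libraries held C1qa, which the gate counts as a marker. Of the 6 vehicle cells, 5 held C1qa, which reached 5661 CPM over all 6, and C1qb reached 5966 CPM and Cd74 13728 CPM. Lyve1, Folr2, Retnla and Piezo1 had 0 UMIs in these 6 cells, where the exact Poisson upper limit of 0 UMIs is 62.5 CPM. Both sunitinib cells held C1qa and Cd74 but had only 751 and 1082 UMIs in all. They reached 3 markers through C1qa and C1qb with 1 other marker each, so their C1qa was set by the rule. Numbers this small allow no statement on how either compound bears on the C1qa-positive share, which was 52.3% of the 132 cells with sunitinib plus Yoda1 (43.4 to 61.0%).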

How the data were processed

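Arterial digests went into Chromium Single-Cell 3' libraries, per the labels' protocols. The authors deposited raw UMI counts per gene and barcode, made with Cell Ranger 7.1.0 (sunitinib plus Yoda1) and 6.0.0 (sunitinib and vehicle), per the file headers. Build mm10 and Seurat are named per the submitters' processing notes. Version 7 counts intronic reads by default; no source used here says whether this default applied.

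Barcodes passed with 500 or more UMIs, 300 or more genes and no more than 15% of UMIs from mitochondrial genes, and were gated as described. Counts were summed over cells (Python 3.11.15, numpy 2.4.6, scipy 1.17.1). Levels carry exact Poisson, shares Clopper-Pearson and ratios conditional binomial intervals, all for counting error only. Ratios need 20 UMIs over both groups, and 0 was set to 3 UMIs per group. Scrublet (scanpy 1.11.5) marked 11 of 3130 cells (0.351%), so few that its calls were not used, and no doublets were removed. Other classes of the library were gated on their own markers and on 0 UMIs of genes of other classes, and cells of the phagocyte gate were taken out of them. Scripts were tested on simulated data.

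The members, the gate and the gene lists (26, plus 2 added after values were seen) were chosen with earlier results of these data known. Named genes are the 12 highest and 12 lowest detected in 20% or more of one group's cells with 50 or more UMIs in all (leaving out C1qa and haemoglobin, immunoglobulin, mitochondrial, sex-linked and ribosomal genes), plus the gate genes, Piezo1 and the kinases, and the 3 highest and 3 lowest of a list described; other genes named beside a count were chosen after their values were seen. Some genes that this rule names are not reported here. In all, 13 alternatives were set out beforehand and 5 added after seeing the data. TMM factors came from edgeR 4.0.16, used for scaling alone. Coordinates are GENCODE vM21 on mm10.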

Additional observations from a re-analysis of the deposited data

How the results depend on the processing

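The number of phagocytes, the C1qa-positive share, the counts of genes at least 2-fold apart and 4 list medians (resident macrophage, classical monocyte, dendritic cell and MHC class II) were recomputed under 18 alternatives, except that the number and share have no value where the cells stay the same. Of these values 104 stayed within their limits, 20 moved and 1 reversed. Except where named, the cause was not tested. The resident macrophage and classical monocyte medians kept their direction under all 18.

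The reversal was MHC class II at 0.96, and the dendritic cell median changed sign with it to 0.33, with 45 C1qa-negative cells left once those with 2 or more of Flt3, Cd209a, Klrd1 and Dpp4 were taken out, an alternative chosen after seeing the data. The dendritic cell list holds Flt3, Cd209a and Dpp4, so its change restates the choice of cells in part. The class II change was also in part fixed by that choice, because Cd209a had been seen to go with H2-Aa. Under the same alternative the resident macrophage median was 1.52. At most 5% mitochondrial UMIs gave a positive share of 38.6% and a resident macrophage median of 1.39, and 4 or more markers gave 2.15 for it. Thinning to 2000 UMIs gave 106 genes higher, 147 lower and a resident macrophage median of 1.21. It left out cells with fewer than 2000 UMIs, so 50 C1qa-positive and 61 C1qa-negative cells were compared. With C1qa read after thinning, the share was 39.6%, the genes 106 and 134, the resident macrophage median 1.29 and the class II median -0.995; fewer genes reach 20 UMIs after thinning. A split by any C1q gene gave -1.55 for class II. The mean over cells gave 910 genes lower, 1.41 for resident macrophages and -1.09 for classical monocytes. No minimum of UMIs gave 1216 genes higher and 1337 lower, by testing more genes. Without the 5 cells with 3 or more fibroblast or mural markers, the resident macrophage median was 2.25.

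Lists resting on single cells changed sign: mural genes were -5.37 and erythroid genes -0.10 at 5% mitochondrial UMIs, erythroid genes -0.27 and fibroblast genes 2.92 with 4 or more markers, erythroid genes -0.20 with 7 markers and -4.76 with C1qa read after thinning, and proliferation genes 0.39 as a mean over cells. The interferon median lay between -0.28 and 0.26. TMM and median-of-ratios factors moved all log2 ratios by 0.0045 and 0.0018. Depth limits genes absent from the shallow C1qa-positive cells without Ccr2. No paired analysis was possible because each treatment had 1 library.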
